A study of Mus musculus with 12 samples.

Results

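Dendritic cell associated genes were followed in macrophages (Mϕ) sorted from the mouse peritoneum, as 9 genes read by symbol from both expression tables, out of 47643 gene identifiers. The genes were Cd209a, Tcf4, Btla, Cdh1, Flt3, Zbtb46, Ccr7, Dpp4 and Batf3, and each symbol matched 1 row. All groups came from female C57BL/6 mice at day 6 after zymosan A (5 mg/kg, intraperitoneal), a yeast cell wall preparation that induces a self-limiting peritonitis. From day 1 the mice received daily intraperitoneal injections of compound III (CIII, 25 mg/kg), an inhibitor of the prostaglandin E2 synthase mPGES-1, or of its vehicle (VEH, a Tween-80 and carboxymethyl cellulose saline). F4/80lo Mϕ were sorted as CD45+ CD11b+ cells with low F4/80 and MerTK that were negative for Ly6G and positive for MHCII. F4/80hi Mϕ were sorted as CD45+ CD11b+ cells with high F4/80 and MerTK. The study's gating scheme set CD11c+ MHCII+ dendritic cells apart before these gates. Each of the 4 groups (VEH F4/80lo, CIII F4/80lo, VEH F4/80hi and CIII F4/80hi) had 3 libraries, numbered 1 to 3, so that 12 libraries were compared. The study describes its data in general as from independent experiments. What a library number stands for (a mouse, a pool or an experiment) is not given in the sources used here, and p-values measure the spread between these libraries only. There was no group without zymosan.

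Conventional dendritic cells arise from progenitors that carry the receptor FLT3 and are set apart from Mϕ by the transcription factor ZBTB46, while BATF3 is needed for the cross-presenting cDC1 subset and TCF4 (E2-2) for plasmacytoid dendritic cells. Matured dendritic cells use the chemokine receptor CCR7 to reach the lymph node. CD209a is a C-type lectin of monocyte-derived and cDC2-type cells, DPP4 (CD26) is a surface peptidase, BTLA is an inhibitory receptor and CDH1 is the adhesion molecule E-cadherin. Several of these genes are not restricted to dendritic cells. B cells express Btla and Tcf4, T cells express Dpp4 and Ccr7, and epithelial cells express Cdh1.

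The libraries held 426624 to 3389448 UMI-collapsed reads on genes, and 3 reads, the most that a count of 0 allows, corresponded to 0.885 to 7.03 reads per 1000000 (rpm). These limits cover counting error only. Libraries numbered 3 stood apart in all 4 groups, with 2.65% to 14.3% of their reads on Gm42418, a gene model that overlaps ribosomal RNA sequence, against at most 0.579% in the others. The gate itself was less visible in them. Adgre1, which encodes F4/80, was at 1064 to 1336 rpm in F4/80hi libraries 1 and 2 of both treatments, but at 366 rpm in VEH and 368 rpm in CIII F4/80hi library 3, while the F4/80lo libraries spanned 205 to 381 rpm. Macrophage markers were present in every library, with 12 of 12 listed genes above 1 rpm on average. Levels between the subpopulations were compared in rpm, from whole reads recovered from the tables, because the deposited values of F4/80lo and F4/80hi Mϕ were scaled separately. Reads came from transcript 3′ ends and were not scaled by gene length.

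The first question was whether the subpopulations differed in these genes. In 6 of the 9 genes (Cd209a, Btla, Flt3, Zbtb46, Dpp4 and Batf3) the F4/80lo library was higher than the F4/80hi library of the same treatment and number in 6 of 6 pairs, as it was for 7.40% of all genes tested, and their mean levels differed at least 4.46-fold with all libraries included. Not every pair was resolved at this depth. Facing an F4/80hi library without reads, the values of Cd209a, Btla, Flt3 and Zbtb46 in VEH F4/80lo library 3 and of Btla in VEH libraries 1 and 2 were under the level that a count of 0 allows. Tcf4 and Cdh1 were higher in F4/80lo Mϕ in 5 of 6 pairs, and Ccr7 in 4 of 6. With limma over all 12 libraries, 0 of the 9 genes passed an adjusted p of 0.05, where 3 of 10736 genes (0.0279%) were called higher and 1 (0.00931%) lower in F4/80lo Mϕ, and 1016 had an unadjusted p under 0.05. These calls moved with single libraries, from 0 to 124 genes when 1 of the 12 was left out. Leaving out VEH F4/80lo library 3 or VEH F4/80hi library 3 gave calls for 4 of the 9 genes each, and leaving out any of the other 10 libraries gave none. Equal library numbers deviated together, and with each pair of libraries as a replicate block 6 of the 9 genes were called, against 3.05% of all genes called higher in F4/80lo Mϕ. Of the 9 genes, 5 averaged under 3 rpm in F4/80hi Mϕ and met the minimum of 3 rpm over all libraries only through F4/80lo Mϕ, so these counts describe the genes and are no separate support. In bulk samples, fewer cells of a type and less RNA per cell cannot be told apart.

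**Figure D1:**
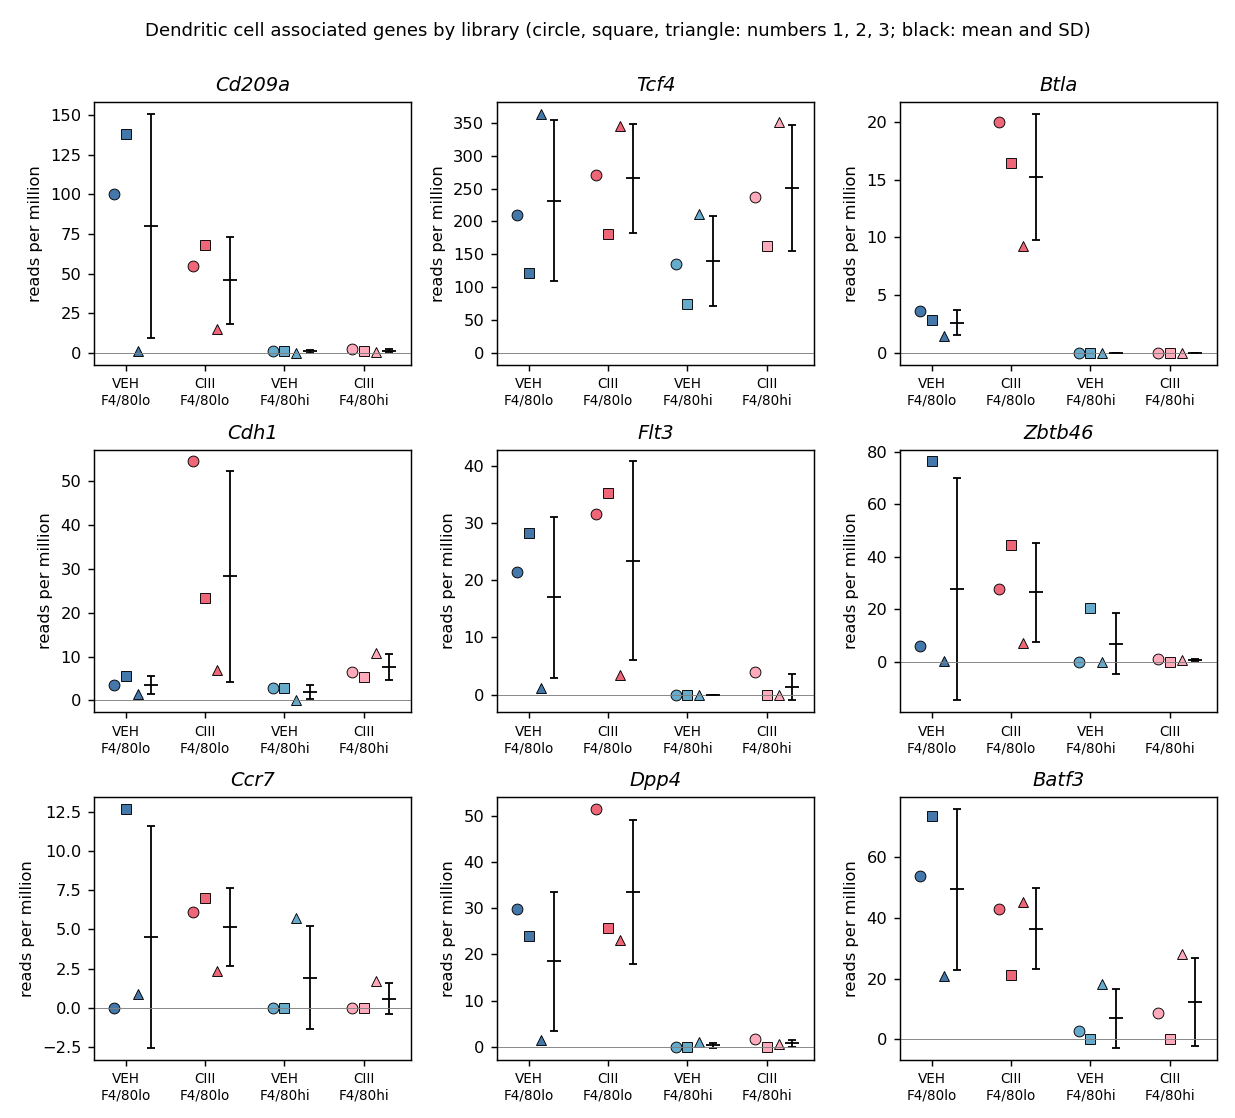
Level of each gene in rpm (y axis) in the 12 libraries by group (x axis), with circles, squares and triangles for numbers 1, 2 and 3 and black bars for the mean and SD of 3 libraries. Btla was at 0 in all 6 F4/80hi libraries, and the triangle of VEH F4/80lo is the lowest F4/80lo point in 7 of the 9 genes but the highest for Tcf4.

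Cd209a (ENSMUSG00000031494, GRCm38 chromosome 8, 3743397 to 3748984, minus strand) showed the largest fitted difference of the 9 genes. In VEH F4/80lo Mϕ it was at 100.4, 138 and 1.48 rpm in libraries 1, 2 and 3, and in CIII F4/80lo Mϕ at 54.6, 68.0 and 15.1 rpm. The F4/80hi libraries held 0 to 2.40 rpm, or 7 reads in all. Thus 5 of the 6 F4/80lo libraries lay above every F4/80hi library, and only VEH library 3 fell among them. The mean was 52.9-fold higher in F4/80lo Mϕ, and the difference on the log2(rpm + 1) scale was 4.14 (SE 0.85, limma adjusted p = 0.0939; 0.000466 with the replicate block; exact permutation p = 0.00433). The call was also made without VEH F4/80lo library 3 (adjusted p = 0.000951) or without VEH F4/80hi library 3 (adjusted p = 0.0472). Cd209a lies in a family of similar lectin genes whose reads a counter could split. Of its relatives, Cd209e, Cd209f and Cd209g had no read, Cd209b reached 4.69 rpm at most, and Cd209c and Cd209d peaked at 45.2 and 18.4 rpm in VEH F4/80lo library 2, the library with most Cd209a.

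Dpp4 (ENSMUSG00000035000, chromosome 2, 62330073 to 62412231, minus strand) followed the same order. VEH F4/80lo libraries held 29.9, 24.0 and 1.48 rpm, and CIII F4/80lo libraries 51.5, 25.8 and 23.2 rpm. In F4/80hi Mϕ, 3 of 6 libraries had no read and the highest was at 1.60 rpm. Again VEH F4/80lo library 3 alone overlapped the F4/80hi range. The means differed 49.9-fold, a value that rests on 4 F4/80hi reads, of which 2 were in CIII library 1. The log2 difference was 3.83 (SE 0.66, limma adjusted p = 0.0610; 0.00145 with the replicate block). Leaving out VEH library 3 of F4/80lo or of F4/80hi Mϕ gave the call as well (adjusted p = 0.00206 and 0.0154), as did a pseudocount of 5 (adjusted p = 0.0491).

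Flt3 (ENSMUSG00000042817, chromosome 5, 147330741 to 147400489, minus strand), the receptor of dendritic cell progenitors, was at 21.5, 28.2 and 1.18 rpm in VEH and at 31.5, 35.2 and 3.48 rpm in CIII F4/80lo Mϕ. Reads in F4/80hi Mϕ were restricted to CIII library 1, with 5 reads or 3.99 rpm. Both F4/80lo libraries numbered 3 fell below this value and the other F4/80lo libraries lay above it. The log2 difference was 3.42 (SE 0.79, limma adjusted p = 0.135; 0.00341 with the replicate block, and 0.0273 without VEH F4/80lo library 3). The means differed 30.3-fold, and no F4/80hi read was left without CIII library 1.

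Btla (ENSMUSG00000052013, chromosome 16, 45224315 to 45257670, plus strand) was the gene with reads in every F4/80lo and in no F4/80hi library. No read was found in any of the 6 F4/80hi libraries, which over their summed depth allows up to 0.484 rpm, whereas all 6 F4/80lo libraries had reads, from 1.48 to 20.0 rpm. Against that limit F4/80lo Mϕ were at least 18.4-fold higher, which the CIII libraries carried. Within treatments the bound, set on 3 reads over 3 libraries, was 19.0-fold in CIII but 2.16-fold in VEH libraries, whose single values (3.59, 2.82 and 1.48 rpm) were under the limits of the same-numbered VEH F4/80hi libraries (4.14, 4.34 and 2.86 rpm). The exact permutation p over 6 against 6 libraries, which takes the values of 0 as exact, was 0.00216. This is the smallest value when libraries are exchanged freely, without regard to treatment or number. Of all genes tested, 0.587% separated the libraries in this direction. The fitted log2 difference was 2.89 (SE 0.55, limma adjusted p = 0.0804; 0.0108 with the replicate block), and the call was made without VEH library 3 of F4/80lo (adjusted p = 0.0426) or of F4/80hi Mϕ (0.0358). Summed B cell markers (10 genes) were at 22.1 to 208 rpm in F4/80lo and at 0 to 69.5 rpm in F4/80hi libraries. Within that list Ighm, the immunoglobulin M heavy chain, made up most of the reads (12.7 to 119.9 rpm in F4/80lo Mϕ), whereas 4 of the 10 genes averaged under 1 rpm. The gates used no B cell marker. A CD11b+ gate would leave out B cells without CD11b but not those with it, and the part of B cells in the Btla reads was not tested.

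For Cd209a and Btla the promoter sequences are shown, since these genes had the largest difference and no F4/80hi read, respectively. RefSeq (GRCm38.p6) promoters of 300 bases, 250 before and 50 after the start site, were found for 6 of the 9 genes (Cd209a, Btla, Flt3, Zbtb46, Dpp4 and Batf3). Sequences are given 5′ to 3′ on the strand of the gene, Cd209a from chr8:3748935-3749234 (minus strand) and Btla from chr16:45224087-45224386 (plus strand). Capitals mark matches to GGAANNGAA, the core of the composite element bound by PU.1 with an interferon regulatory factor, in Cd209a, and to GAGGAAGT, a PU.1 site, in Btla.
Cd209a: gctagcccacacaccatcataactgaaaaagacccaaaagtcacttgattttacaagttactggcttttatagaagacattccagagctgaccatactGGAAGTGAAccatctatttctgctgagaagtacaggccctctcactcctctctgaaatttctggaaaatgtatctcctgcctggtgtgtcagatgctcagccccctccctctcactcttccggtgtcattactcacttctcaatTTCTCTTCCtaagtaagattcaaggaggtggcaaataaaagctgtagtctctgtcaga
Btla: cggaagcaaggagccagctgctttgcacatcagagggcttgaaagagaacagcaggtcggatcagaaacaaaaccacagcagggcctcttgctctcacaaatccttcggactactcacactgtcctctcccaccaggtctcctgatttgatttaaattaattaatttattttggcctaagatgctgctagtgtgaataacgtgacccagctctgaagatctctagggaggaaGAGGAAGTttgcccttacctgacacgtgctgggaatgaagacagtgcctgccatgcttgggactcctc
The matches begin 152 bases before the start site (on the strand of the gene) and 8 bases before it (on the other strand) in Cd209a, and 18 bases before it in Btla. A total of 7 motifs were searched on both strands. GGAANNGAA was present in 8.24% of all 32851 promoters and among these 6 genes in Cd209a alone, and GAGGAAGT in 3.20% and in Btla alone. GAAANNGAA, the core of the interferon response element, which can overlap the composite element, was found in Btla and Dpp4 (8.56% of all promoters). TTTCNNTTT, which can overlap it on the other strand, was in Dpp4 (10.6%). TGANTCA, the AP-1 site to which BATF factors also bind, was found in Zbtb46 (7.81%), which also held the E-box CAGGTG (20.2%), a type of site bound by TCF4. AGGAAG, the core contained in the PU.1 site, was in 4 of the 6 promoters (Batf3, Btla, Cd209a and Dpp4) and in 35.4% of all. A match describes letters in this window and is no measured binding site.

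Among the transcription factors, Batf3 (ENSMUSG00000026630, chromosome 1, 191097847 to 191108945, plus strand) was at 53.8, 73.4 and 20.9 rpm in VEH and at 43.0, 21.1 and 45.2 rpm in CIII F4/80lo Mϕ. In F4/80hi Mϕ it was at 2.76, 0 and 18.1 rpm in VEH and at 8.78, 0 and 28.1 rpm in CIII libraries. Both F4/80hi libraries numbered 3 stood above the others of their group, and CIII library 3 was above 2 of the F4/80lo libraries. The log2 difference of 2.93 (SE 0.81, limma adjusted p = 0.229; 0.0103 with the replicate block) went with a 4.46-fold higher mean (7.24-fold without CIII F4/80hi library 3), and passed without VEH F4/80hi library 3 (adjusted p = 0.0363).

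Zbtb46 (ENSMUSG00000027583, chromosome 2, 181387762 to 181459426, minus strand) varied widely within F4/80lo Mϕ, at 5.98, 76.3 and 0.295 rpm in VEH and 27.7, 44.5 and 6.96 rpm in CIII libraries. In F4/80hi Mϕ, VEH library 2 held 14 of the 16 reads (20.2 rpm) and no other library exceeded 0.798 rpm. Library 2 was the highest within both F4/80lo groups and within VEH F4/80hi Mϕ. The log2 difference was 2.81 (SE 0.99, limma adjusted p = 0.367; 0.0132 with the replicate block). The means were 7.48-fold apart, or 4.74-fold without VEH F4/80lo library 2. Without VEH F4/80hi library 2 only 2 reads (0.274 rpm on average) were left in F4/80hi Mϕ, too few for a fold.

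Tcf4 (ENSMUSG00000053477, chromosome 18, 69343356 to 69689079, plus strand) had by far the most reads, 3623 over the 12 libraries, and was expressed in both subpopulations. It was at 209, 121 and 363 rpm in VEH and 271, 180.5 and 345 rpm in CIII F4/80lo Mϕ, against 135, 73.7 and 211 rpm in VEH and 238, 162 and 352 rpm in CIII F4/80hi Mϕ. In each of the 4 groups library 3 was the highest and library 2 the lowest. The subpopulations overlapped throughout, with a 1.27-fold difference of the means and a log2 difference of 0.40 (SE 0.34, limma adjusted p = 0.760).

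Cdh1 (ENSMUSG00000000303, chromosome 8, 106603351 to 106670246, plus strand) was at 1.48 to 54.6 rpm in F4/80lo and at 0 to 10.9 rpm in F4/80hi Mϕ, a log2 difference of 1.10 (SE 0.59, limma adjusted p = 0.581). Its means differed 3.37-fold, or 1.74-fold without CIII F4/80lo library 1. Ccr7 (ENSMUSG00000037944, chromosome 11, 99144196 to 99155077, minus strand), the migration receptor of matured dendritic cells, was near the limit of detection. It had 25 reads over the 6 F4/80lo and 9 over the 6 F4/80hi libraries, with 12.7 rpm at most in VEH F4/80lo library 2 and 5.71 rpm in VEH F4/80hi library 3, and 5 libraries had no read. Its log2 difference of 1.35 (SE 0.80, limma adjusted p = 0.630) was within the spread of the libraries. With 1 library left out it ran from 0.79 to 1.80. Summed T and NK cell markers (12 genes) were at 25.4 to 68.0 rpm in F4/80lo and 4.34 to 79.0 rpm in F4/80hi libraries. They were highest in VEH F4/80hi library 3, which also held most F4/80hi reads of Ccr7, and Gzma made up 41.9 of its 79.0 rpm. The T cell receptor genes Cd3e, Cd3d and Cd3g were at 0 to 18.8 rpm. The part of T cells in the Ccr7 and Dpp4 reads was not tested. Other annotated genes overlap Tcf4, Flt3, Zbtb46 and Dpp4, and they held 0 to 2 reads.

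**Figure D2:**
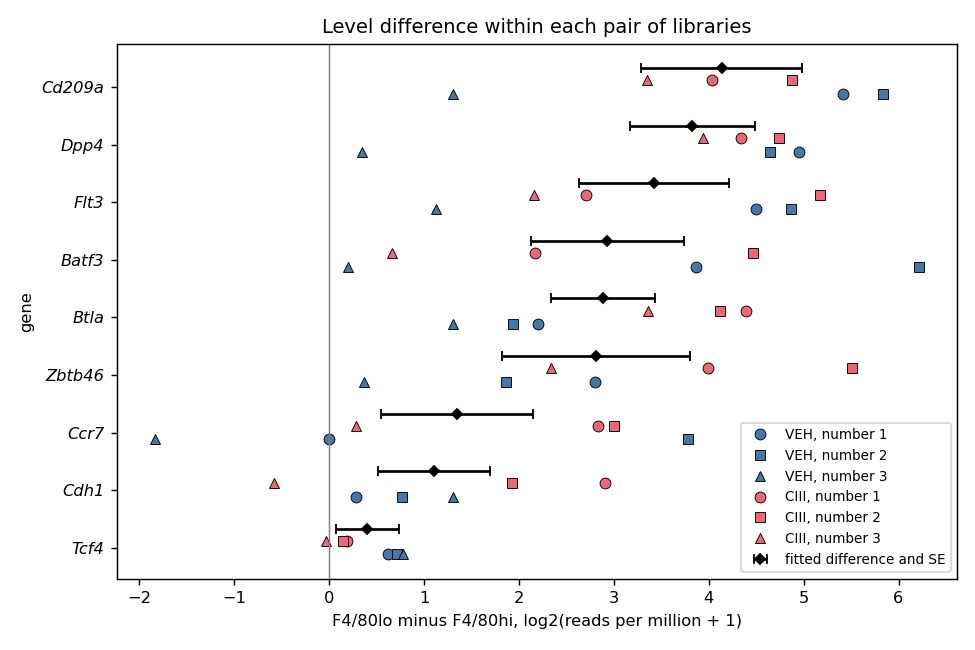
F4/80lo minus F4/80hi difference on the log2(rpm + 1) scale (x axis) for each gene (y axis), for the 6 pairs of libraries with the same treatment and number, with the fitted difference and its SE in black. All 6 points lie above 0 for the 6 upper genes, and the blue triangle (VEH, number 3) is the lowest of the 6 points in each of them.

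The second question was whether mPGES-1 inhibition moved these genes within a subpopulation, tested on the log2 of the deposited normalized count plus 1. In F4/80lo Mϕ all 9 genes could be tested, and none passed an adjusted p of 0.05. Of all 10718 genes limma called 0 (0%), edgeR 0 and DESeq2 2, and 289 had an unadjusted limma p under 0.05. VEH and CIII libraries were fully separated in 2 of the 9 genes, Btla and Cdh1, with CIII higher in both, and the same held for 3.82% of all genes tested. These 2 were also the genes with an unadjusted p under 0.05, against 1.08% of all genes for CIII higher. Without CIII library 1 the unadjusted limma p was 0.0764 for Btla and 0.115 for Cdh1. The log2 difference was then 1.89 for Btla, against 2.08 with all libraries, and 1.69 for Cdh1, against 2.33. Both genes appear in the study's own list of top genes for F4/80lo Mϕ, so they are not independent evidence of a direction. With 3 against 3 libraries, the smallest p an exact permutation test can give is 0.1.

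Btla was at 3.49, 2.57 and 1.67 normalized counts in VEH and at 18.4, 16.0 and 8.84 in CIII F4/80lo libraries 1, 2 and 3, from 10 reads in VEH and 41 in CIII libraries in total. Every CIII library was higher than every VEH library, and the difference was similar in the 3 numbers, at 2.11, 2.25 and 1.88 on the log2 scale. The fitted difference was 2.08 (SE 0.74, limma adjusted p = 1.00, unadjusted p = 0.0160; exact permutation p = 0.1). The summed B cell markers were highest in CIII F4/80lo library 1 (208 rpm), which also had most Btla. They were at 135 rpm in VEH library 1, where Btla was below every CIII library, and at 27.8 rpm in CIII library 3, where it was above every VEH library. Like Btla, the summed markers were higher with CIII within each number, at 208 against 135, 77.4 against 29.7 and 27.8 against 22.1 rpm. The part of B cells in the Btla difference was not tested. In F4/80hi Mϕ Btla had no read under either treatment. Its ligand Tnfrsf14 (HVEM) had 7 reads in all 12 libraries.

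Cdh1 was at 3.49, 5.13 and 1.67 normalized counts in VEH and at 50.4, 22.8 and 6.63 in CIII F4/80lo libraries, without overlap. The fitted log2 difference was 2.33 (SE 0.82, limma adjusted p = 1.00, unadjusted p = 0.0154; exact permutation p = 0.1), and the differences within numbers 1, 2 and 3 were 3.52, 1.96 and 1.52. Without CIII library 1 it fell to 1.69 and without CIII library 3 it was 3.06. In F4/80hi Mϕ the same gene was at 2.66, 2.61 and 0 normalized counts in VEH and at 5.78, 4.81 and 10.4 in CIII libraries, again without overlap, as were 4.73% of all genes tested there with CIII higher. The difference was 1.69 (SE 0.86, limma adjusted p = 0.992, unadjusted p = 0.0806), with 0.89, 0.68 and 3.51 within the numbers. It was 1.07 without VEH library 3 and 0.79 in numbers 1 and 2 alone. Of the 4 genes that could be tested in both subpopulations, Cdh1 was the one whose treatments overlapped in neither, as for 0.515% of the 10097 genes tested in both with CIII higher. Epithelial and mesothelial markers were at or near 0, with 6 of 9 genes without a read and 8 of 9 under 1 rpm on average. The exception was Krt7, at 53.9 rpm in CIII F4/80lo library 2 and at most 4.79 rpm elsewhere, whereas Cdh1 was highest in CIII F4/80lo library 1. The sort took CD45+ cells, but its purity is not given in the sources used here. The part of epithelial cells in the Cdh1 reads was not tested. Epcam, which encodes another epithelial adhesion molecule, had 11 reads, all in CIII F4/80lo libraries 1 and 3.

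**Figure D3:**
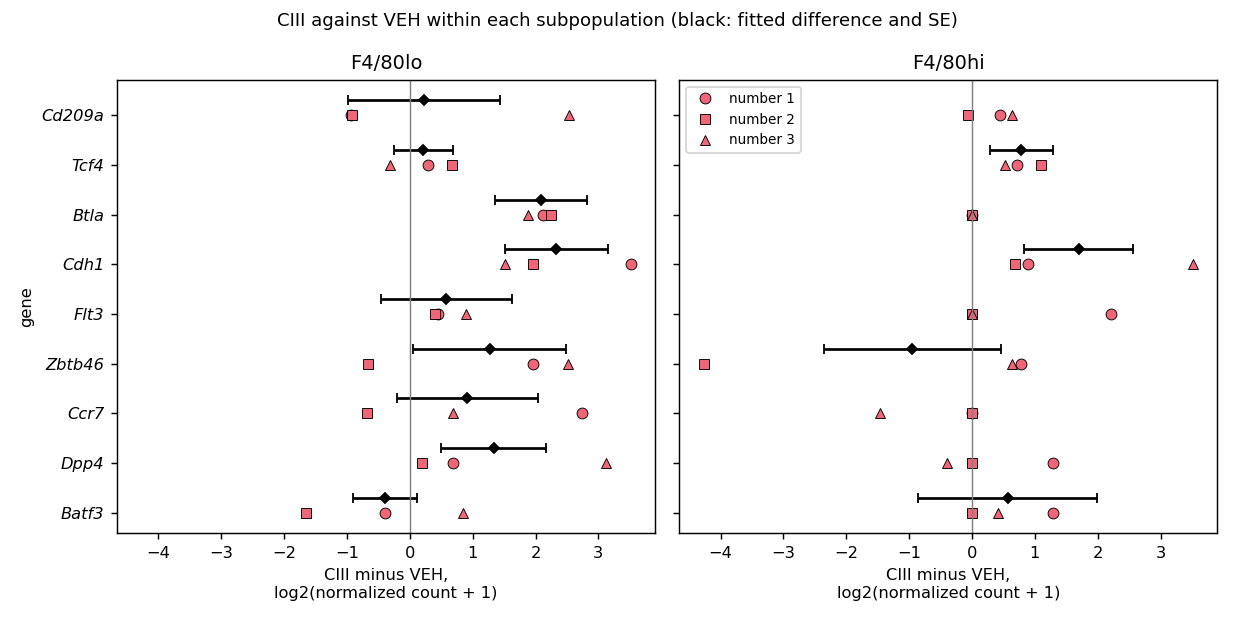
CIII minus VEH difference on the log2(normalized count + 1) scale (x axis) within each library number for each gene (y axis), in F4/80lo (left) and F4/80hi Mϕ (right), with the fitted difference and SE in black for genes that could be tested. The 3 points of Btla lie between 1.88 and 2.25 in F4/80lo Mϕ, and all points of Cdh1 lie above 0 in both panels.

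In the other 7 genes the treatments overlapped in F4/80lo Mϕ. Cd209a was at 97.7, 126 and 1.67 normalized counts in VEH and at 50.4, 66.2 and 14.4 in CIII libraries, which gave a log2 difference of 0.22 (SE 1.21). Within numbers 1 and 2 CIII was lower (-0.94 and -0.91) and within number 3 higher (2.53). The difference was -1.57 without VEH library 3, -0.0020 without CIII library 1 and -0.20 without CIII library 2, and -0.93 in numbers 1 and 2 alone. Flt3 differed by 0.58 (SE 1.04) and was higher with CIII within each number, by 0.46, 0.40 and 0.89. Its difference was 0.43 in numbers 1 and 2 alone, but -0.54 when VEH library 3 was left out and CIII library 3 kept. Zbtb46 differed by 1.27 (SE 1.22), with 1.96, -0.66 and 2.52 within the numbers, 0.65 in numbers 1 and 2 alone and -0.074 without VEH library 3. With edgeR and DESeq2 on recovered reads it was 0.010 and 0.0066. Dpp4 differed by 1.33 (SE 0.84) and was higher with CIII within each number, by 0.69, 0.20 and 3.12. It differed by 0.44 in numbers 1 and 2 alone and by 0.23 without VEH library 3. Leaving out single libraries moved Ccr7 between 0.14 (without VEH library 1) and 1.97 (without VEH library 2). For Ccr7 (0.92, SE 1.12), Tcf4 (0.21, SE 0.47) and Batf3 (-0.40, SE 0.51) the difference was smaller than its SE. Batf3 differed by -0.39, -1.65 and 0.84 within the numbers, by -1.02 in numbers 1 and 2 alone and by -0.076 without CIII library 2. The limma adjusted p was 1.00 in each of these 7 genes.

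In F4/80hi Mϕ only Tcf4, Cdh1, Zbtb46 and Batf3 reached the minimum mean of 3 normalized counts, and none was called. Of all 10499 genes limma, edgeR and DESeq2 each called 0 (0%), and 413 had an unadjusted limma p under 0.05. No member other than Cdh1 separated the treatments, and none had an unadjusted p under 0.05 (1.29% of all genes for CIII higher). Tcf4 was at 130.3, 66.6 and 233 normalized counts in VEH and at 215, 144 and 336 in CIII libraries. The groups overlapped, although CIII was higher within each number, by 0.72, 1.10 and 0.53. The fitted difference was 0.78 (SE 0.50, limma adjusted p = 0.992, or 0.273 with the replicate block). It was 0.33 without VEH library 2 and 1.22 without VEH library 3. Zbtb46 (-0.95, SE 1.41) followed the single VEH library 2 (0.47 without it), and Batf3 differed by 0.57 (SE 1.42). Of the 5 genes below the minimum, Btla had 0, Flt3 5, Dpp4 4, Cd209a 7 and Ccr7 9 reads over the 6 libraries.

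The responses of the subpopulations could be set against each other for these 4 genes. Subtracting the F4/80hi from the F4/80lo difference (CIII minus VEH) gave 0.64 for Cdh1 (SE 1.17), -0.57 for Tcf4 (SE 0.75), 2.22 for Zbtb46 (SE 1.97) and -0.97 for Batf3 (SE 1.62). None was called (limma adjusted p = 0.999 in each), nor was any of the 10097 genes tested (0% by limma, and 0 by edgeR and DESeq2), of which 173 had an unadjusted limma p under 0.05. For Btla this difference could not be tested, because F4/80hi Mϕ had no read.

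Marker lists of dendritic cell subsets were read to place these genes. Of the cDC1 list, Clec9a, Itgae and Snx22 averaged under 1 rpm and the chemokine receptor Xcr1 reached 4.69 rpm at most. Irf8, Naaa, Wdfy4, Cd24a and Tlr3 had reads in every library of both subpopulations. In the comparison of F4/80lo with F4/80hi Mϕ 6 of the 10 cDC1 genes were tested and none was called (median log2 difference 0.25, against 0.07 over all genes). Of these, 4 lay above 0, while Cd24a (-1.17) and Tlr3 (-0.53) lay below. Of the pDC list, Siglech, Ccr9, Pacsin1, Cox6a2 and Klk1 averaged under 1 rpm, with 1 to 9 reads in all 12 libraries or, for Klk1, none. Among the 4 pDC genes tested 3 lay above 0 and 1 below, and none was called (median 1.61). Runx2, Smim5 and Spib, at 14.6 rpm at most, differed by 1.73, 1.77 and 1.48, whereas Bst2, at 155 to 505 rpm, differed by -0.53 (SE 0.25, limma adjusted p = 0.529).

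The cDC2 list held 7 tested genes of 11, all of them above 0 (median 1.07), and 1 was called. Tnip3, an inhibitor of NF-κB signalling, was at 49.9 to 192 rpm in F4/80lo and 7.23 to 48.7 rpm in F4/80hi Mϕ, without overlap, a log2 difference of 2.48 (SE 0.39, limma adjusted p = 0.0462). Itgax, which encodes CD11c, was at 39.4, 129.9 and 2.07 rpm in VEH and 73.8, 53.9 and 48.7 rpm in CIII F4/80lo Mϕ, against 0.573 to 8.28 rpm in F4/80hi Mϕ (difference 3.40, SE 0.77, limma adjusted p = 0.135). VEH library 3 was its only low F4/80lo value, as for Dpp4. Mgl2 and Irf4, the lectin CD301b and a transcription factor of cDC2, differed by 2.41 and 1.07 (limma adjusted p = 0.502 and 0.497).

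Of the maturation list 10 of 12 genes were tested, 9 lay above 0 and none was called (median 0.74). Ccl5, Fscn1 and Il4i1 were higher by 2.03, 1.84 and 2.02 in F4/80lo Mϕ and Ankrd33b lower by -1.95, at adjusted p of 0.437 to 0.479 by limma. All 16 transcription factors and receptors on the list of dendritic cell regulators were tested, 15 lay above 0 and none was called (median 0.55). In contrast, 8 of 8 genes of resident large peritoneal Mϕ lay below 0 (median -1.86, none called), with Gata6, the transcription factor of these cells, at -2.52 (SE 0.78, limma adjusted p = 0.307). Both F4/80hi libraries numbered 3 stood apart on Gata6, at 1.90 (VEH) and 5.73 rpm (CIII). The other F4/80hi libraries were at 23.2 to 52.0 rpm and the F4/80lo libraries at 0.295 to 8.37 rpm. The F4/80hi libraries numbered 3 also had at most 25.7 rpm of Alox15, against 714 to 1504 rpm in the other F4/80hi libraries. Timd4 and Cd93 of the same list overlapped, with Timd4 at 79.0 and 145 rpm against 78.5 to 366 rpm in the other F4/80hi libraries. Of the monocyte list 8 of 8 genes were tested, 6 lay above 0 and none was called (median 0.29). Ccr2, the chemokine receptor of inflammatory monocytes, was at 1199 (VEH) and 704 rpm (CIII) in the F4/80hi libraries numbered 3, against 20.2 to 306 rpm in the other F4/80hi and 442 to 2289 rpm in the F4/80lo libraries. Of the general Mϕ list, 9 of 12 genes lay below 0 (median -0.37, none called). Between the treatments none of the genes on these lists was called in either subpopulation. In these dendritic cell lists an unadjusted limma p under 0.05 was reached by Tlr3 in F4/80lo Mϕ (difference 1.88) and by Bst2 (-0.97) and Cd83 (2.14) in F4/80hi Mϕ.

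**Figure D4:**
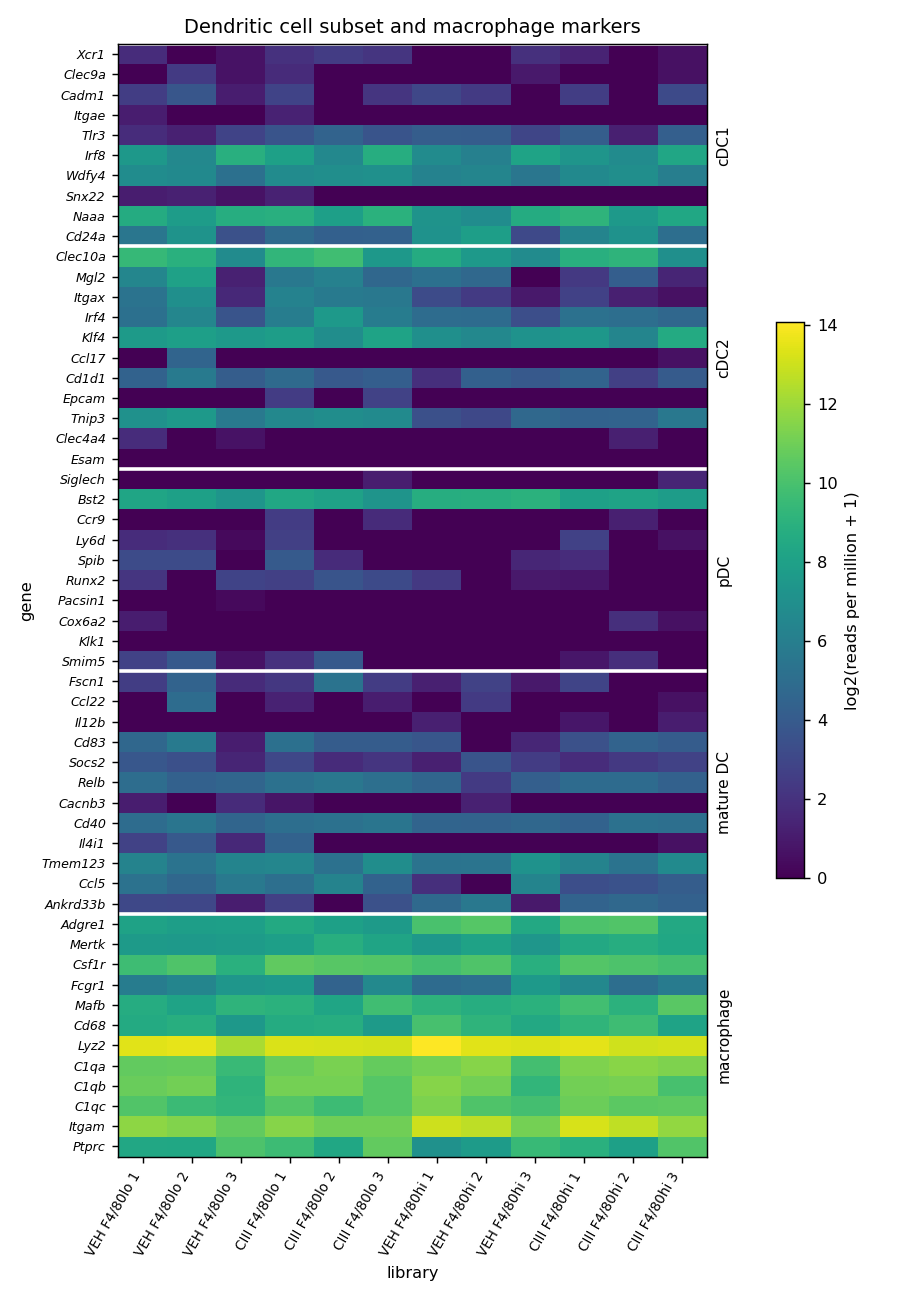
Heat map of log2(rpm + 1) (colour) for listed genes of cDC1, cDC2, pDC, mature dendritic cells and Mϕ (rows) in the 12 libraries (columns). Siglech, Pacsin1 and Klk1 are at or near 0 throughout, whereas Tnip3 is brighter in every F4/80lo than in every F4/80hi column, Itgax in all F4/80lo columns but VEH library 3, and the Mϕ genes are bright in every column.

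Known partners of the 9 genes were listed as well, and 15 of 22 could be tested between the subpopulations, with 5 above 0 and none called (median -0.18). The CCR7 ligands Ccl19 and Ccl21a and Cd160, which encodes a further HVEM ligand, had no read. Ctnnb1, β-catenin, which binds the tail of E-cadherin, was at 161 to 537 rpm in F4/80lo Mϕ and differed by 0.82 between CIII and VEH there (SE 0.35, limma adjusted p = 1.00, unadjusted p = 0.0391). It was the only 1 of the 15 partners tested there with an unadjusted p under 0.05, and the catenins Ctnnd1 and Ctnna1 differed by -0.18 and 0.016 (10 of 15 above 0, median 0.13). Batf, which like Batf3 pairs with Jun proteins, and the TCF4 partner Tcf12 were expressed in every library.

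The genes whose levels most resembled each member over the 12 libraries were taken among genes of at least 10 rpm, by Pearson r on log2(rpm + 1). These r mix subpopulation, library and depth and are descriptions. Cd209a was most like the lectin gene Clec4b1 (r = 0.957 over 12 and 0.988 over the 6 F4/80lo libraries), Flt3 was most like Pid1 (0.973 and 0.965), and Cd209a was among its 3 most alike genes (0.952 and 0.931). Dpp4 was most like Siglecg (0.966 and 0.881) and Btla most like Dpp4 (0.918 and 0.702), followed by Ffar2, a short-chain fatty acid receptor (0.917 and 0.935). For Batf3 the leading gene was Plbd1 (0.934), but this fell to 0.463 within F4/80lo Mϕ. Cdh1 was most like Afdn (0.917 and 0.918), which encodes the adherens junction protein afadin, and Tln1, talin (0.904 and 0.944). Tcf4 led with Pirb (0.963 and 0.973), Zbtb46 with Ccdc12 (0.934 and 0.958) and Ccr7 with Lfng (0.868 and 0.785). Next in order came H13 and Pid1 for Cd209a, Zfp644 and Abca9 for Tcf4, Grk3 for Flt3, Igsf9 and Pitpna for Zbtb46, Rtf2 and Limd2 for Ccr7, Rtn1 and Olfm1 for Dpp4, Atp13a1 and Cyp4f18 for Batf3, Relt for Btla and Zfp942 for Cdh1, with r between 0.853 and 0.959 over the 12 libraries.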

How the data were processed

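Both sorted subpopulations (F4/80lo and F4/80hi, 3 VEH and 3 CIII libraries each, day 6) were analysed. According to the methods and the submitters' processing notes, QuantSeq 3′ reads with UMI were trimmed with Bbduk, mapped to GRCm38 with STAR, collapsed by UMI and counted per gene with HTSeq-count in the Bluebee pipeline. Versions, annotation and strand setting are not given in the sources used here. The deposited values are a signal, namely read counts divided by the authors by 1 DESeq2 size factor per library, set within each subpopulation. Dividing each library by its smallest positive value gave whole reads for 100% of the values (tolerance 0.001 reads).

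Treatments were compared with limma 3.58.1 (lmFit, eBayes with trend) in R 4.3.3 on log2(normalized count + 1), in genes with a mean of at least 3, and subpopulations on log2(rpm + 1), in recovered reads per 1000000 with a mean of at least 3, with 4 group means. All p-values are two-sided and were adjusted after Benjamini-Hochberg over all genes, at a threshold of 0.05. Alternatives were a replicate block, edgeR 4.0.16 and DESeq2 1.42.0 on recovered reads, other pseudocounts, minima and scalings, each treatment alone, libraries 1 and 2 alone and each library left out. Exact permutation tests were run in scipy 1.17.1. They exchanged libraries freely, without regard to number or, between the subpopulations, to treatment.

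The numbers paired the libraries. Deviations from the group means correlated at 0.121 to 0.504 (F4/80lo) and 0.216 to 0.639 (F4/80hi) between treatments, and at 0.378 to 0.685 (VEH) and 0.259 to 0.478 (CIII) between subpopulations, for each same-numbered pair. Differently numbered libraries reached at most 0.171, 0.285, 0.211 and 0.016, and VEH library 1 correlated more with CIII library 2 than with CIII library 1 in both subpopulations. The pairing comes from the titles' numbers and these deviations alone.

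The 9 genes and all 15 other gene lists were chosen with earlier results of these data known. All members were named, and of other lists up to 4 tested genes with the smallest p, those that define a cell type near 0, and the 3 genes most like each member. Genes named beyond this (Cd209 relatives, Irf8, Naaa, Wdfy4, Krt7, Epcam, Ighm, Alox15, Gzma, Cd3e, Cd3d, Cd3g, Ctnnd1, Ctnna1, Ccl17, Ccl22, Batf, Tcf12, Tnfrsf14, Ccl19, Ccl21a, Cd160) were chosen after their values were seen. Gene positions are from GENCODE M21 (GRCm38).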

Additional observations from a re-analysis of the deposited data

How the results depend on the processing

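With the replicate block, 514 genes differed between F4/80lo and F4/80hi Mϕ, against 4 without it, and 6 of the 9 genes were among them (Cd209a, Btla, Flt3, Zbtb46, Dpp4 and Batf3). The number of genes called was 141 with DESeq2, 2 with edgeR, 2 with TMM scaling, 11 with a pseudocount of 5, 0 without a minimum, 0 in VEH and 2 in CIII libraries alone, and 262 in libraries 1 and 2 alone, and 0 to 124 when 1 library was left out (124 without VEH F4/80hi library 3 and 54 without VEH F4/80lo library 3). Of the 9 genes, DESeq2 called Btla, Cd209a, Dpp4 and Flt3, libraries 1 and 2 alone these and Batf3, a pseudocount of 5 Dpp4, and edgeR, TMM scaling, no minimum, VEH alone, CIII alone and 10 of the 12 left-out libraries called 0. With 1 library left out the adjusted p of Cd209a, for example, ran from 0.000951 to 0.337. In none of the 189 alternative values of the 9 genes did the direction between subpopulations change. For CIII against VEH in F4/80lo Mϕ, DESeq2 called 2 genes and every other alternative 0, and in F4/80hi Mϕ and in the difference of responses no alternative made a call, the replicate block included. Cd209a in F4/80lo Mϕ reversed with a pseudocount of 5 (-0.076), edgeR (-0.79), DESeq2 (-0.78) and libraries 1 and 2 alone (-0.93). Left-out libraries moved Cd209a from -1.57 to 1.21, Tcf4 from -0.25 to 0.70, Flt3 from -0.54 to 1.55 and Zbtb46 from -0.074 to 2.79 there, Zbtb46 from -1.66 to 0.47 and Batf3 from -0.51 to 1.89 in F4/80hi Mϕ, and the difference of responses of Cdh1 from -0.0067 to 1.37, of Batf3 from -2.29 to 0.11, of Zbtb46 from 0.80 to 3.74 and of Tcf4 from -1.03 to -0.086. With edgeR and DESeq2 Zbtb46 differed by 0.010 and 0.0066 in F4/80lo and by -3.34 and -3.68 in F4/80hi Mϕ, and Ccr7 by 0.30 and 0.28 in F4/80lo Mϕ. The cause was not tested. At this depth a gene without reads may reach 7.03 rpm in the shallowest library.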

Other observations

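Library 2 of VEH F4/80lo Mϕ had the highest values of some dendritic cell genes and low values of others. It had the highest level of all 12 libraries for Cd209a (138 rpm), Zbtb46 (76.3 rpm), Batf3 (73.4 rpm) and Ccr7 (12.7 rpm). The same library held the highest Itgax (129.9 rpm) and Mgl2 (268 rpm), and most reads of the chemokine genes Ccl17 (22.6 rpm, at most 0.573 rpm elsewhere) and Ccl22 (31.1 rpm, at most 4.34 rpm elsewhere). Tcf4 (121 rpm), Irf8 (93.2 rpm) and Naaa (223 rpm) were lowest in this library among the F4/80lo libraries, Xcr1 had no read, and Clec10a (483 rpm) and Irf4 (87.6 rpm) were below CIII F4/80lo library 2 (884 and 188 rpm). VEH F4/80lo library 3 had the lowest Cd209a (1.48 rpm) and Itgax (2.07 rpm) but the highest Tcf4 (363 rpm) and Irf8 (477 rpm) of the F4/80lo libraries. The depth of these libraries was 708083 and 3389448 reads. These genes were picked after their values were seen and the difference between single libraries was not tested.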
